A study of Physcomitrium patens with 6 samples.

Results

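Protonema of the moss Physcomitrium patens, the filamentous juvenile tissue that spores and tissue fragments grow into, was compared after 60 minutes of abscisic acid (ABA) with protonema at 0 minutes of ABA. The comparison took the 4 libraries labelled 60 or 0 minutes, 2 biological replicates of each, out of 6 mRNA libraries in the series. The remaining 2, at 30 minutes, entered the model to estimate the spread. They also entered the gene filter, the scaling factors and the search for IDs with nearly the same counts. Otherwise they are given as side values. In the 60 minute group, 10-day-old protonema had been sonicated, grown for 3 days in shaken liquid medium and given ABA for 60 minutes; the 0 minute group came from the same kind of culture, and the treatment protocol gives methanol, the carrier, as the control addition. The labels do not say how long the 0 minute cultures held methanol before collection, so ABA and time after an addition cannot be told apart. The ABA concentration is 10 µM in the series design and 10 mM in the treatment protocol. No strain, transgene or mutation is named in the labels.

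ABA is the hormone with which land plants respond to water loss and salt. It is bound by soluble receptors that then hold back a class of protein phosphatases, which frees protein kinases of the SnRK family to phosphorylate basic leucine zipper transcription factors that switch on ABA-responsive genes. In mosses the hormone is known for the tolerance of protonema to drying and freezing, and for transcripts of protective late embryogenesis abundant proteins. The count files give gene IDs without names, and 0 of 32926 IDs matched the RefSeq table used here (27567 genes, assembly ASM5946719v1). The genes below are therefore given by ID, with no name, function or sequence, and the labelled tissue was not checked against markers.

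Gene counts summed to 16095741 and 17550096 in the 60 minute libraries, and to 17822775 and 16407676 in the 0 minute libraries. Genes were ranked in each library by their reads, rank 1 being the gene with the most. A rank does not change with the scaling between libraries. Gene lengths are not in the files, so a rank orders genes by the reads they took, which grow with transcript length, and not by molecules; in bulk RNA, fewer cells with a transcript and less of it per cell cannot be told apart. Fold changes were tested with edgeR's quasi-likelihood test on counts scaled by TMM, and a gene counts as called when its p, adjusted by Benjamini-Hochberg over all genes tested, is below 0.05. Of 18949 genes tested, 57.9% were called at 60 against 0 minutes, 28.4% higher and 29.5% lower, and for 77.8% the libraries of the groups did not overlap. The balance depends on scaling: 49.1% of the called genes were higher with TMM, 51.1% with RLE factors, 21.9% with total counts only and 26.6% with upper-quartile factors. Nothing in the labels says whether the replicates were separate cultures beyond the words biological replicates, so the p-values measure the spread between these libraries.

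After 60 minutes of ABA a large part of the genes with the most reads had been replaced. A 60 minute library shared between 54 and 56 of its 100 top-ranked genes with a 0 minute library, over the 4 pairs of libraries. The replicates at 60 minutes shared 89 of 100 with each other, and those at 0 minutes 97. The gap was there at every depth of the ranking examined. Among the 10 top ranks, a 60 and a 0 minute library shared 5 or 6 genes, against 9 between the 60 minute replicates and 9 between the 0 minute replicates. Among the 1000 top ranks the pairs across time shared 65.8% to 66.2%, against 93.6% and 95.8% within 60 and within 0 minutes. With 2 libraries per group an exact two-sided permutation test cannot pass the threshold, so these overlaps are given without a p.

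**Figure D1:**
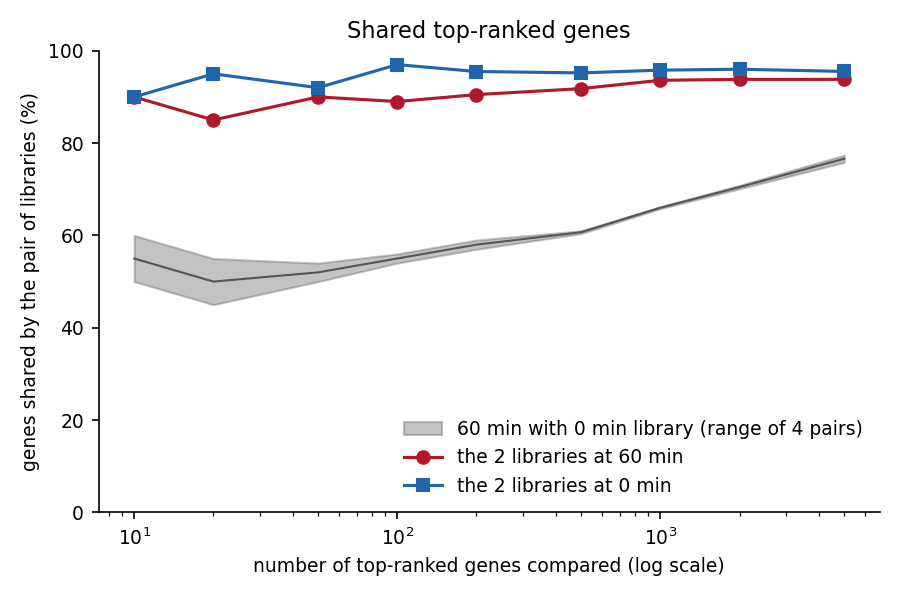
Percent of top-ranked genes shared by a pair of libraries (vertical axis) against the number of top ranks compared (horizontal axis, log scale). Red circles are the 2 libraries at 60 minutes, blue squares the 2 at 0 minutes, and the grey band the range (its line the mean) over the 4 pairs of a 60 and a 0 minute library, which lies at 54.0% to 56.0% for the 100 top ranks, below both replicate lines.

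The extent of the moves differed between the upper and the lower ranks. Among the 100 genes ranked highest in a 0 minute library, the median gene was displaced 1.89-fold to 2.06-fold in rank (up or down) in a 60 minute library, and 1.10-fold in the other 0 minute library. For the ranks after these down to 1000 the median displacement was 1.60-fold to 1.66-fold against 1.08-fold, and for those after 5000 down to 10000 it was 1.23-fold to 1.27-fold against 1.07-fold. The upper ranks were thus the more displaced, by ratio of ranks, in both 0 minute libraries.

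The very top of the ranking took a smaller part of the reads at 60 minutes and the ranks behind it a larger one. The 100 top-ranked genes of each library held 21.1% and 22.8% of gene counts at 60 minutes, against 25.0% and 26.3% at 0 minutes. The groups did not overlap there. For the 500 top ranks they did, at 45.7% and 48.3% at 60 minutes and 46.3% and 47.8% at 0 minutes. For the 5000 top ranks the order was the other way, with 86.5% and 88.2% at 60 minutes against 83.0% and 83.9% at 0 minutes. Put as numbers of genes, 50% of the reads came from 636 and 552 genes at 60 minutes and from 644 and 582 at 0 minutes, whereas 90% came from 6295 and 5680 genes at 60 minutes and from 7612 and 7337 at 0 minutes. The curves therefore cross. The 60 minute replicates lay further apart than those at 0 minutes in most of these shares (SD of the share of the 1000 top ranks 1.94 and 0.999 percentage points, n = 2 each).

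**Figure D2:**
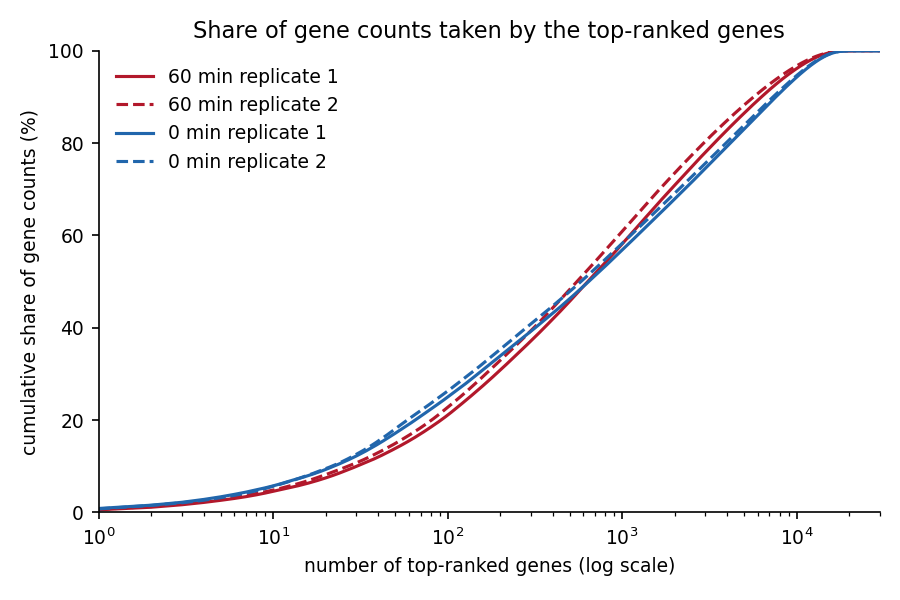
Cumulative share of gene counts (percent, vertical axis) taken by the genes ranked highest in each library (number of genes, horizontal axis, log scale). The red lines (60 minutes) run below the blue lines (0 minutes) at 100 genes and above them at 5000 genes.

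Of the 10 top ranks, 5 genes held their place in all 4 libraries, 4 entered and 3 left; these groups were named after their values were seen. The gene with the highest mean share of reads at 0 minutes, Pp3c4_17240, remained near the top: it took 92549 and 104229 reads at 60 minutes (ranks 1 and 3) and 152984 and 124038 at 0 minutes (ranks 1 and 2). As a share of gene counts that was 0.575% and 0.594% at 60 minutes, against 0.858% and 0.756% at 0 minutes. The groups did not overlap in share, yet after TMM scaling the log2 fold change was 0.00 (SE 0.17, adjusted p = 0.986), and with total counts as the only scaling it was -0.47 with a call. With upper-quartile factors it was -0.34 without a call. Whether this gene fell thus depends on the scaling. The other holders of a top 10 rank were Pp3c7_14450, Pp3c5_13519, Pp3c22_5610 and Pp3c13_7900, whose log2 fold changes ranged from -0.49 to 0.50. Of these, Pp3c7_14450 and Pp3c5_13519 were called higher (adjusted p = 0.0209 and 0.0469) and Pp3c22_5610 lower (0.0203), and each call was lost in the fit to only the 4 libraries (adjusted p = 0.0786, 0.131 and 0.0786) and without replicate 1 at 0 minutes (0.181, 0.219 and 0.0508). The calls of Pp3c5_13519 and Pp3c22_5610 were also lost without replicate 2 at 0 minutes (0.111 and 0.150), and that of Pp3c5_13519 without replicate 2 at 60 minutes (0.119). Scaling ended calls as well: with total counts only, Pp3c7_14450 had a log2 fold change of 0.040 (adjusted p = 0.770) and Pp3c5_13519 one of -0.040 (0.766), and with upper-quartile factors 0.16 (0.380) and 0.083 (0.660). Pp3c13_7900 was not called (-0.08, adjusted p = 0.695), but it was called lower with total counts only (-0.54) and with upper-quartile factors (-0.42).

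The genes that entered the 10 top ranks had come from very different depths. Pp3c10_17760, the gene with the highest mean share at 60 minutes, had 89335 and 111159 reads at 60 minutes (rank 2 in both libraries) and 57497 and 61037 at 0 minutes (ranks 19 and 16). This was a short climb, and the log2 fold change was 1.24 (SE 0.18, adjusted p = 0.000112). Pp3c3_29530 had 80239 and 113026 reads at 60 minutes, ranks 4 and 1, against 1505 and 1652 at 0 minutes, ranks 1902 and 1548. It thus became the most-read gene of one 60 minute library, at a log2 fold change of 6.42 (SE 0.24, adjusted p = 1.07e-09). Pp3c23_13700 rose alike, with 62699 and 71517 reads at 60 minutes (ranks 8 and 6) and 1472 and 1615 at 0 minutes (ranks 1945 and 1585). The fourth, Pp3c8_16760, came from much further down: 61120 and 66968 reads at 60 minutes (ranks 10 and 8), against 128 and 88 at 0 minutes (ranks 13729 and 14540). At 30 minutes Pp3c3_29530 stood at ranks 20 and 23, Pp3c23_13700 at 26 and 31 and Pp3c8_16760 at 44 and 46, between their positions at the other times.

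The genes that left the 10 top ranks did not go far. Pp3c9_5310 had 41908 and 45319 reads at 60 minutes (ranks 23 and 25) and 101154 and 91163 at 0 minutes (ranks 5 and 4), and its log2 fold change was -0.65 (SE 0.15, adjusted p = 0.00311). Pp3c21_3950, which ranked 17 and 32 at 60 minutes and 3 and 9 at 0 minutes, was among the 5 highest by mean share at 0 minutes. Its log2 fold change was -0.68 (SE 0.16, adjusted p = 0.00434), a call that was lost without replicate 1 at 0 minutes (adjusted p = 0.0642). The last of the 3, Pp3c10_25371, stood at ranks 27 and 22 at 60 minutes and 10 and 7 at 0 minutes. Another ID with nearly the same counts, Pp3c10_25360, stood at ranks 28 and 23 at 60 minutes and 11 and 8 at 0 minutes. Whether these IDs share reads was not tested. The counts of Pp3c10_25371, 37968 and 48242 at 60 minutes and 76778 and 81237 at 0 minutes, gave a log2 fold change of -0.39 that was not called (adjusted p = 0.0740). It was called lower in 6 of 12 alternative fits: total counts only (-0.86), upper-quartile factors (-0.74), no filter, DESeq2 (adjusted p = 0.0467), the replicate block (0.0444) and the fit without replicate 2 at 60 minutes (-0.57).

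Widened to 100 ranks, the exchange was lopsided in distance rather than in number. A gene was taken to have entered when it ranked within the top 100 in both 60 minute libraries and outside it in both 0 minute libraries, and to have left in the reverse case. By this definition 41 genes entered, 35 left and 48 held, and a further 27 were inside the 100 in only 1 library of a time. The 41 that entered had a median mean rank of 49 at 60 minutes and 10270.5 at 0 minutes, and their mean ranks at 0 minutes ran from 118 to 16901. The 35 that left had a median mean rank of 139.5 at 60 minutes and 73 at 0 minutes, and the furthest stood at 345.5 at 60 minutes. In both libraries of each time, 32 genes of the top 100 at 60 minutes had ranked below 1000 at 0 minutes and 20 below 10000, whereas 0 genes of the top 100 at 0 minutes ranked below 1000 at 60 minutes. Between replicates of one time, 0 genes moved from the top 100 of one library to below rank 1000 in the other.

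**Figure D3:**
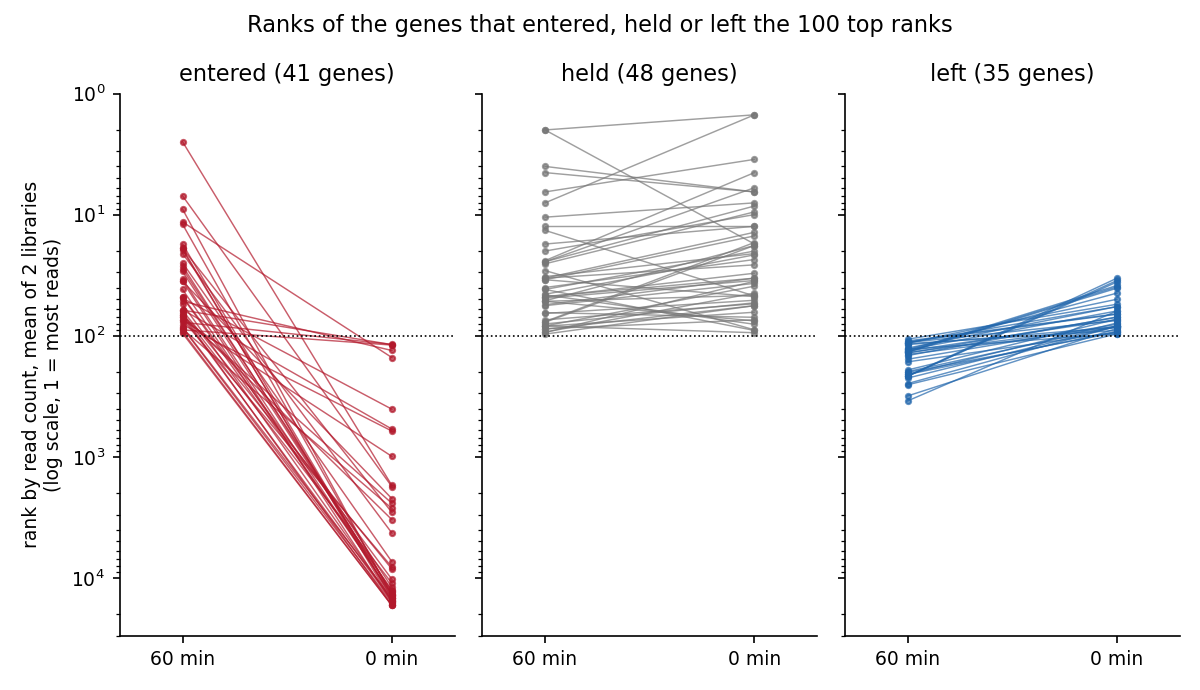
Mean rank by read count over the 2 libraries of each time (vertical axis, log scale, 1 at the top) for the genes that entered, held or left the 100 top ranks; each line is a gene, with 60 minutes on the left and 0 minutes on the right, and the dotted line marks rank 100. The 41 lines of the entering genes reach down to rank 16901 at 0 minutes, while the 35 lines of the leaving genes go no further than rank 345.5 at 60 minutes.

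The entering genes took 8.58% and 9.39% of gene counts at 60 minutes, against 0.661% and 0.698% at 0 minutes. The leaving genes took 3.38% and 3.26% at 60 minutes and 6.17% and 6.35% at 0 minutes, and the held genes 10.9% and 11.7% at 60 minutes and 15.5% and 16.0% at 0 minutes. In percentage points the held genes, larger in number, thus lost more than the leaving ones did. Relative to their own share at 0 minutes they lost less. A share also falls when other genes take more reads. After TMM scaling the median log2 fold change was -0.08 for the held and -0.34 for the leaving genes. The shares were used to form the groups and are a description. By the test over all genes, the 41 that entered were each called higher, with log2 fold changes from 0.83 to 10.01 and a median of 7.52, and they were each called higher in the 12 alternative fits that test against no change, those without a library included. Their choice by rank fixes the direction, and 28.4% of all genes tested were called higher.

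The 6 entering genes that had stood lowest in the ranking at 0 minutes had few reads there. Pp3c3_5200 had 20619 and 25602 reads at 60 minutes (ranks 94 and 91) and 39 and 31 reads at 0 minutes (ranks 16846 and 16956). Pp3c15_900 had 22909 and 30602 reads at 60 minutes and 40 and 33 at 0 minutes, a log2 fold change of 10.01 (SE 0.24, adjusted p = 4.76e-11). In both genes the lower 60 minute library exceeded the higher 0 minute library by over 20000 reads, a gap that follows from their choice by rank. Pp3c24_1540 had 23728 and 23180 reads at 60 minutes and 54 and 53 at 0 minutes, and Pp3c16_12890 had 32676 and 38598 at 60 minutes and 63 and 54 at 0 minutes. Pp3c23_14420 climbed highest of the 6, to rank 19 in both 60 minute libraries with 43984 and 54255 reads, against 75 and 59 reads at 0 minutes. The sixth ID, Pp3c3_5270, had 20469 and 25513 reads at 60 minutes and 39 and 31 at 0 minutes, nearly the counts of Pp3c3_5200. At 30 minutes these genes had already left the low ranks: Pp3c16_12890 stood at ranks 98 and 89, Pp3c23_14420 at 117 and 115, and Pp3c15_900 at 260 and 275.

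The low reads of such genes at 0 minutes were a small proportion of their reads at 60 minutes. For the 21 entering genes with a mean rank below 10000 at 0 minutes, the 0 minute reads came to between 0.136% and 0.769% of the 60 minute reads, both summed over 2 libraries. Over all genes with at least 2000 reads at 60 minutes in sum (2848 genes), the lowest such proportion was 0.0785% and 0 genes were without a read at 0 minutes. From 2000 reads upwards the lower edge was of like size: the lowest proportion was 0.0988% among genes of 2000 to 5000 reads at 60 minutes, 0.125% among those of 10000 to 20000 and 0.133% among those above 50000. Among the 2184 genes of 1000 to 2000 reads it was 0%, with 1 gene without a read at 0 minutes, and the fifth lowest was 0.102%. Whether some of the 0 minute reads came from other libraries was not tested. The sizes of these genes' fold changes rest on those few reads, whereas their ranks at 60 minutes do not.

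At the other end, 5 entering genes had stood just outside the line, at ranks from 114 to 154 in the 0 minute libraries; they were named after their values were seen. Pp3c22_5700 moved furthest of these, to ranks 12 and 11 at 60 minutes, against 149 and 154 at 0 minutes. It had 51435 and 64156 reads at 60 minutes, against 15679 and 14268 at 0 minutes, and a log2 fold change of 2.44 (SE 0.16, adjusted p = 1.92e-07). Pp3c1_32280 had 28077 and 31076 reads at 60 minutes and 17346 and 16365 at 0 minutes, ranks 49 and 55 against 136 and 129. The remaining entries from close by, Pp3c19_8830, Pp3c11_19620 and Pp3c1_23850, had log2 fold changes of 0.91, 1.08 and 0.83.

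Some gene IDs shared nearly the same counts, and a rank they hold may stand for one set of reads. Among 2845 IDs with a mean of at least 1000 counts, 107 pairs agreed within 2% in all 6 libraries, and they involved 153 IDs. Of the 107 pairs, 88 had the same ID prefix, and the other 19 each joined 2 IDs of the Pp3s series, whose IDs have prefixes of their own; 4.05% of all pairs of such genes have the same prefix. Pp3c3_5200 and Pp3c3_5270 were such a pair among the entering genes, and 7 of the leaving and 6 of the held IDs belonged to such groups. Pp3c4_29150, a leaving ID, was paired with Pp3c4_29270, and Pp3c10_25371, which left the 10 top ranks, with Pp3c10_25360. In the count tables the rows for ambiguous and for not uniquely aligned reads are 0 in every library. Whether one read was counted for more than one ID was not tested, and these IDs are uncertain as separate genes. With each such group reduced to 1 ID, 43 genes entered, 33 left and 47 held, an alternative chosen after seeing the data.

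Among the leaving genes the lowest position at 60 minutes was that of Pp3c26_6961, which had 8966 and 7575 reads at 60 minutes (ranks 283 and 408) and 32129 and 30082 at 0 minutes (ranks 62 and 63). Its log2 fold change was -1.42 (SE 0.14, adjusted p = 5.75e-06). Pp3c26_6890, Pp3c26_6930 and Pp3c26_6990 formed a group of 3 IDs with near-equal counts, the last of them named after its values were seen. Pp3c26_6990 had 13367 and 11032 reads at 60 minutes (ranks 179 and 252), against 47394 and 46802 at 0 minutes (ranks 33 and 34), and Pp3c26_6890 had 13347 and 11012 reads at 60 minutes, against 47259 and 46640 at 0 minutes. The log2 fold change was -1.46 for each of the 3 IDs, the lowest among the leaving genes. Pp3c21_9980 and Pp3c10_10220 fell by 0.87 and 0.66 on the log2 scale. Pp3c4_29150 and Pp3c7_14300 were also called lower, at -0.55 each (adjusted p = 0.00743 and 0.00535), and both calls were lost without replicate 2 at 0 minutes (adjusted p = 0.0807 and 0.0783).

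Leaving the top ranks did not require a called fall. Of the 35 leaving genes 17 were called lower, beside 29.5% of all genes tested, and 18 were not called, with log2 fold changes from -1.46 to 0.31 and a median of -0.34. The leaving genes were chosen by ranks from these same counts, which favours falls, so their share of lower calls is a description. The 48 held genes included 10 called higher, 8 called lower and 30 with no call, at a median of -0.08, beside 28.4% of all genes higher and 29.5% lower. These counts hold for TMM scaling, under which the median of all tested genes was -0.04. With total counts as the only scaling, which put that median at -0.50, 32 leaving genes were called lower, and of the held genes 5 were called higher and 36 lower, beside 14.9% of all genes higher and 53.4% lower. Upper-quartile factors, with a median of -0.39, gave 29 leaving genes lower, and 5 held genes higher and 31 lower, beside 17.4% of all genes higher and 47.9% lower. The fit to only the 4 libraries called 7 held genes higher and 5 lower, beside 26.0% of all genes higher and 27.6% lower. The held genes also moved with single libraries. Their median log2 fold change was -0.13 and -0.05 without replicate 1 or 2 at 0 minutes. It was 0.05 and -0.26 without replicate 1 or 2 at 60 minutes. The median of all tested genes stayed between -0.03 and -0.02 in these fits.

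The lopsided exchange was also found further down the ranking. In both libraries of each time, 98 of the 500 top-ranked genes at 60 minutes had ranked below 5000 at 0 minutes, against 1 gene in the reverse direction. Among the 1000 top ranks, 179 genes had come from below rank 5000 and 132 from below rank 10000, against 4 and 0 that had gone there. The single gene of the top 500 was Pp3c20_6430, at ranks 6659 and 5477 at 60 minutes, against 409 and 481 at 0 minutes. Together with Pp3c1_38440, Pp3c26_3900 and Pp3c26_15240 it made up the 4 of the top 1000. Of these, Pp3c26_3900 and Pp3c26_15240 were named after their values were seen. Pp3c20_6430 and Pp3c1_38440 were also named by rule, among the largest falls below. Pp3c26_3900 had 508 and 497 reads at 60 minutes, against 4821 and 4082 at 0 minutes, a log2 fold change of -2.65 (SE 0.11, adjusted p = 2.47e-09). Pp3c26_15240 had 408 and 442 reads at 60 minutes and 3512 and 3116 at 0 minutes. Between replicates of one time, 0 genes moved from the top 1000 to below rank 5000.

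The largest changes were read among genes with at least 50 counts in each of the 4 libraries. Over all 18949 genes tested, with no such minimum, 2469 (13%) were called at least 2-fold higher and 2884 (15.2%) at least 2-fold lower. At 4-fold the counts were 1235 (6.52%) higher and 973 (5.13%) lower, and at 8-fold 750 (3.96%) higher and 352 (1.86%) lower. Of 13961 genes with at least 50 counts in each library, 679 (4.86%) were called at least 4-fold higher at 60 minutes and 140 (1.0%) at least 4-fold lower. The minimum applies to both directions, and the counts depend on it. At a minimum of 20 counts there were 829 rises and 344 falls, and at 100 counts 519 rises and 54 falls. Total counts as the only scaling gave 465 rises and 364 falls, and upper-quartile factors 511 and 295.

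The highest fold changes under this rule belonged to 8 genes that ranked beyond 10000 at 0 minutes, here given on the scale of CPM (reads per 1000000, with TMM factors). Pp3c23_14420 averaged 3511 ± 548 CPM in the 60 minute libraries, against 3.39 ± 0.28 CPM in those at 0 minutes (SD, n = 2 each), a log2 fold change of 10.01 (SE 0.23, adjusted p = 3.66e-11). Pp3c8_16760 averaged 4576 ± 334 CPM in the 60 minute libraries, against 5.44 ± 0.96 CPM in those at 0 minutes (SD, n = 2 each), with a log2 fold change of 9.71. In this gene and in Pp3c23_14420 the spread between replicates was small beside the difference, which follows from their choice by fold change and no overlap. Pp3c14_6470 had 4399 and 4190 CPM at 60 minutes against 4.92 and 7.15 CPM at 0 minutes. Pp3c7_13140 had 3060 and 4100 CPM at 60 minutes against 4.68 and 4.39 CPM at 0 minutes, and Pp3c23_14240 had 3183 and 4135 CPM at 60 minutes against 4.35 and 5.09 CPM at 0 minutes. For these and for Pp3c16_12890, Pp3c24_1540 and Pp3c8_19410 the log2 fold changes lay between 9.11 and 10.01, and over the alternative fits the 8 genes ranged from 8.64 to 10.18. Each of the 8 also entered the 100 top ranks, and each has 0 minute reads within the range of proportions given above.

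Under the same count minimum, the largest falls were smaller in fold than the largest rises. The minimum also applies at 60 minutes, so it leaves out genes that fell to few reads. Over all genes tested, with no minimum, 108 were called at least 16-fold lower and 534 at least 16-fold higher. At 256-fold the counts were 2 lower and 159 higher. Pp3c8_9180 had 52 and 64 reads at 60 minutes and 1330 and 1142 at 0 minutes, which gave mean CPM of 4.15 ± 0.64 in the 60 minute libraries and 62.7 ± 1.2 in those at 0 minutes (SD, n = 2 each). Its log2 fold change was -3.92 (SE 0.15, adjusted p = 9.6e-10). Pp3c1_38440 was better counted than Pp3c8_9180, with 243 and 303 reads at 60 minutes (ranks 8443 and 7149), against 4797 and 4644 at 0 minutes (ranks 547 and 504). Its log2 fold change was -3.62 (SE 0.14, adjusted p = 1.27e-09). Pp3c20_6430 was better counted still, with 353 and 444 reads at 60 minutes and 6036 and 4829 at 0 minutes. The other 5 were Pp3c3_30500, Pp3c6_20960, Pp3c10_23170, Pp3c17_19170 and Pp3c26_14620, with log2 fold changes from -3.83 to -3.48. None of the 8 stood in the 100 top ranks of a 0 minute library. At 30 minutes Pp3c1_38440 stood at ranks 2091 and 2003 and Pp3c20_6430 at 1212 and 1087, between their ranks at the other times.

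**Figure D4:**
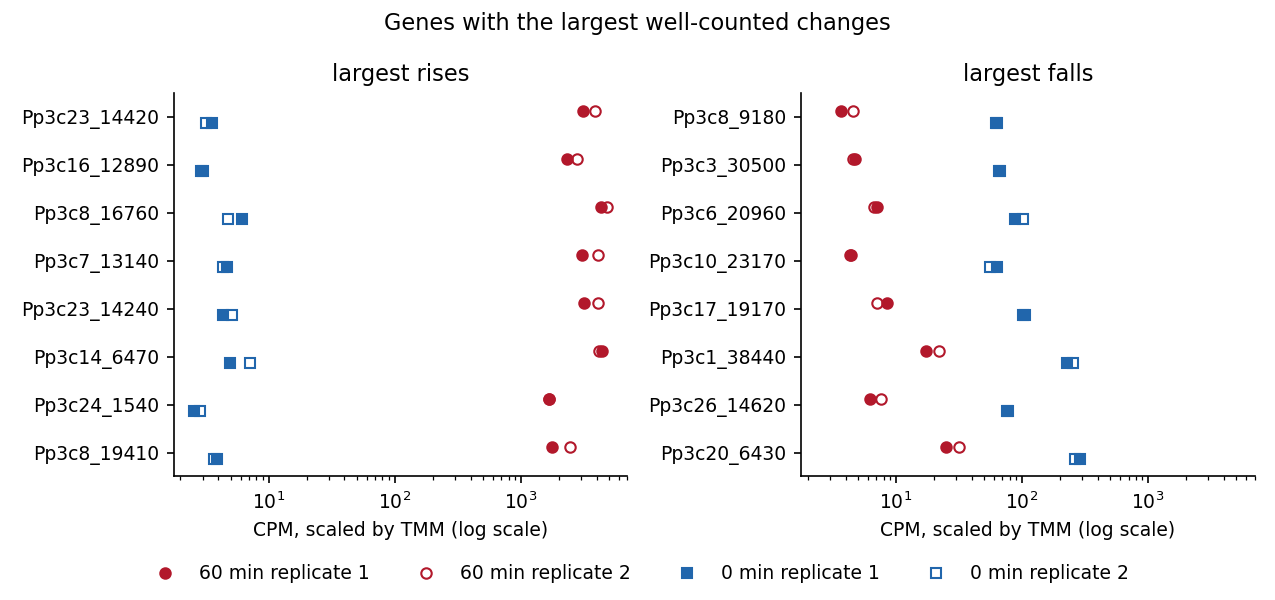
TMM-scaled CPM (horizontal axis, log scale) of the 8 genes with the highest and the 8 with the lowest log2 fold changes among genes with at least 50 counts in each of the 4 libraries. Red circles are the 60 minute libraries and blue squares the 0 minute libraries, filled for replicate 1 and open for replicate 2. The groups lie apart for every gene, as the choice required, by a fitted 554-fold to 1032-fold among the rises and 9.65-fold to 15.1-fold among the falls.

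A minimum was also set in the higher group alone, so that each direction has its own set of eligible genes, chosen by their level in the group where they are high; the counts describe genes that are abundant at one time, and are no measure of the balance over all genes. Among the 2659 genes with at least 1000 counts in both 60 minute libraries, 420 (15.8%) were called at least 8-fold higher at 60 minutes, and 323 (12.1%) at least 16-fold. Among the 2614 genes with at least 1000 counts in both 0 minute libraries, 16 (0.612%) were called at least 8-fold lower and 1 (0.0383%) at least 16-fold. That gene, Pp3c6_17340, was named after its values were seen: it had 33 and 32 reads at 60 minutes and 1002 and 1022 at 0 minutes, a log2 fold change of -4.47 (SE 0.17, adjusted p = 1.05e-09). In reads, the 420 genes took 19.3% and 20.7% of gene counts at 60 minutes, against 0.638% and 0.649% at 0 minutes. The 16 took 0.0123% and 0.0115% at 60 minutes, against 0.181% and 0.173% at 0 minutes. The gaps in these shares follow from the choice by level and fold change and are a description. With scaling by total counts alone, which lowers every log2 fold change, 366 genes rose and 26 fell by this rule, and over the fits without one library 412 to 452 rose and 13 to 19 fell. This minimum was chosen with the data in view.

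**Figure D5:**
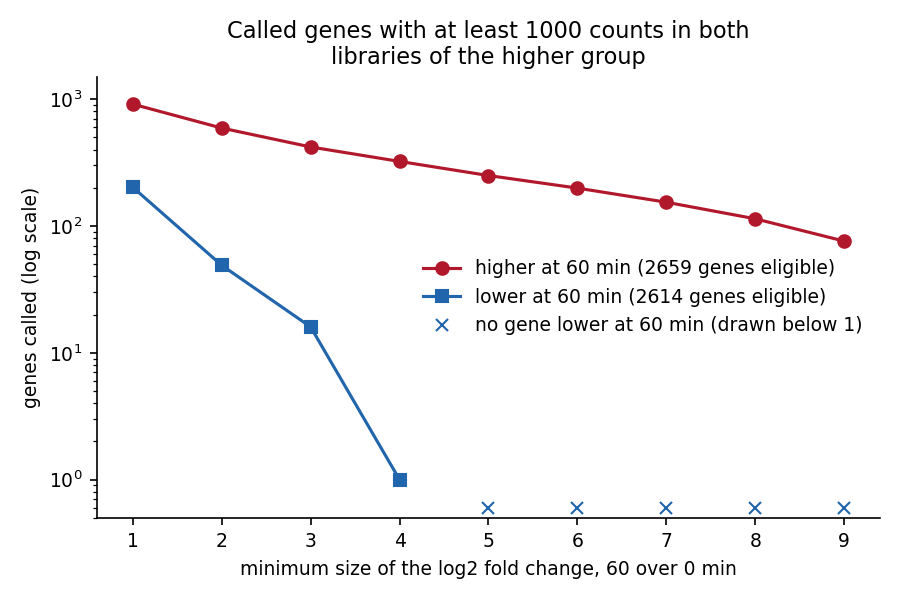
Number of called genes (vertical axis, log scale) whose log2 fold change at 60 over 0 minutes is at least the size on the horizontal axis, among genes with at least 1000 counts in both libraries of the higher group. Red circles are genes higher at 60 minutes, of which 420 reach a log2 fold change of 3, and blue squares genes lower at 60 minutes, of which 16 do; crosses mark sizes reached by 0 of the lower genes.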

How the data were processed

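Each library came with its own table, in which the authors deposited raw read counts for each gene ID. Per the submitters' processing notes the tools were cutadapt, TopHat, HTSeq and DESeq2, with no versions or roles; settings, build, annotation and strandedness were not given in the sources used here. The 5 summary rows name no gene and were left out; reads in no gene were 1.66% to 2.14% of a library. Genes passed edgeR's filterByExpr (minimum count 10, minimum total 15), which kept 18949 genes with 99.94% to 99.97% of gene counts. The test was edgeR 4.0.16 (R 4.3.3): TMM factors, then estimateDisp, glmQLFit and glmQLFTest on all 6 libraries in 3 groups (3 residual degrees of freedom before moderation), with Benjamini-Hochberg adjustment over all genes tested. The SE is the size of the log2 fold change over the square root of F. The common dispersion corresponds to a coefficient of variation of 10.0%. Replicates differed beyond sampling noise, with a chi-square per degree of freedom of 16.1 at 60 and 6.96 at 0 minutes, so neither pair is a library deposited again. The labels give no batch or date.

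Ranks used raw counts, with ties at the lower number. Named genes are the 5 highest by mean share at each time, the 6 genes entering the 100 top ranks with the lowest mean position at 0 minutes and the 6 leaving them with the lowest at 60 minutes (ties kept), and the 8 highest and 8 lowest log2 fold changes among called genes with at least 50 counts in each of the 4 libraries and no overlap; 13 more are marked as named after their values were seen. The comparison, the gene groups and the rule were chosen with earlier results of these data known. Alternatives covered scaling, filters, DESeq2 1.42.0, the libraries fitted, a replicate block, the count minimum and the number of ranks.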

Additional observations from a re-analysis of the deposited data

Results flagged for a closer look

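Reads assigned to no gene are outside the comparisons above. They took 2.14% and 1.73% of counted reads in the 60 minute libraries (replicates 1 and 2), against 1.67% and 1.66% in the 0 minute libraries. Both 60 minute values lie above both 0 minute values, and the 60 minute replicates differ from each other by more than replicate 2 differs from the 0 minute libraries.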

How the results depend on the processing

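Counts of genes called at 60 against 0 minutes depended on scaling. With total counts only, 2830 genes were called higher and 10115 lower, and with upper-quartile factors 3293 and 9080, against 5383 and 5587 with TMM. Well-counted genes at least 4-fold lower numbered 364 with total counts only, 295 with upper-quartile factors, 344 at a minimum of 20 counts, 54 at 100 counts and 49 when 1000 counts were required at 0 minutes only, against 140. Genes at least 8-fold lower from 1000 counts numbered 26 with total counts only, against 16. Other numbers of top ranks changed the turnover by construction: 21, 76 and 175 genes entered, 18, 65 and 153 left and 24, 104 and 278 held for 50, 200 and 500 ranks. The share of gene counts was then 14.4%, 31.9% and 47.0% at 60 minutes, against 17.6%, 34.6% and 47.0% at 0 minutes. The log2 fold change of Pp3c4_17240, which was near 0, turned negative with total counts only (-0.47), with upper-quartile factors (-0.34), without replicate 2 at 0 minutes (-0.045) and without replicate 2 at 60 minutes (-0.087), over a range of -0.087 to 0.11 without 1 library. That of Pp3c5_13519 turned negative with total counts only (-0.040), and that of Pp3c13_7900 positive without replicate 1 at 60 minutes (0.0019, range without 1 library -0.13 to 0.0019). Over 576 pairs of a named gene and an alternative fit, 547 kept direction and call, 15 lost the call, 8 gained one and 6 turned. Without 1 library, 8529 to 11888 genes were called, the lone library of a group being assumed to vary like the others. Replicate numbers were not shown to pair the samples (correlation of the deviations 0.02 between 60 and 0 minutes, 0.26 between 60 and 30 and -0.06 between 30 and 0), and the replicate block gave 11478 called genes, against 10970. Depth limits the folds of genes with few reads at 0 minutes.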

Other observations

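Genes with large rises stood beside other large rises, and large falls beside other large falls, more often than the tested genes as a whole did, in the order of the ID numbers. Of 750 genes called at least 8-fold higher at 60 minutes, 180 (24.0%) had a next tested ID on either side, with the same prefix, that was also called at least 8-fold higher, against 7.60% of all 18949 genes tested. Of 352 genes called at least 8-fold lower, 62 (17.6%) had such a neighbour that was also called at least 8-fold lower, against 3.64% of all genes tested. IDs with near-equal counts were not taken as neighbours of each other, but these were searched for among IDs with a mean of at least 1000 counts only, so near-equal IDs below that mean may remain. Reads shared in part by neighbouring copies remain too, and their part was not tested. One run lay among the genes that entered the 100 top ranks, close in number to Pp3c3_29530. Pp3c3_29550 stood at ranks 24 and 14 at 60 minutes and 3134 and 2624 at 0 minutes, and Pp3c3_29560 at 26 and 16 at 60 minutes and 4710 and 3812 at 0 minutes. Their reads were close at 60 minutes (41645 and 58722, against 41038 and 58047) and further apart at 0 minutes (943 and 1006, against 634 and 695). Whether they share reads was not tested. Both of these IDs were named after their values were seen.

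By ID prefix, the share of tested genes called higher at 60 minutes ranged from 24.8% (Pp3c22) to 31.9% (Pp3c4), and the share called lower from 26.3% (Pp3c25) to 33.1% (Pp3c22), over 27 prefixes of the Pp3c series.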
